A study of Mus musculus with 4 samples.

Results

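Integrins, selectins and the immunoglobulin-like adhesion molecules ICAM, VCAM-1 and MAdCAM-1 were examined in bulk RNA sequencing of mouse liver tumours. Members were the genes whose mouse symbol is an integrin alpha chain, a numbered integrin beta chain, a selectin such as Sele or Selp, the selectin ligand gene Selplg, Icam1, Icam2, Icam4, Icam5, Vcam1 or Madcam1. This gave 36 of 48526 genes in the count tables, and 33 of them were among the 17479 genes kept by the filter on low counts. The 3 left out were Itga8 with 19 and 5 reads in the PBS libraries and 6 and 2 in the AKK libraries, Itgad with 0 to 2 reads, and Madcam1 with 0 reads in each library, which allows up to 0.0631 CPM (counts per 1000000 reads on genes, scaled between libraries), a limit for counting error only.

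All mice were C57BL/6 and were implanted in the liver with mouse hepatoma cells of the RIL-175 line, which carried luciferase, after 2 weeks of MCD diet, a feed short of methionine and choline that makes the liver fatty. The AKK group (2 libraries) was fed 5000000000 colony-forming units of Akkermansia muciniphila, a mucin-degrading gut bacterium. Feeding began 2 weeks before the diet, went on during it, stopped for 6 days after surgery and then resumed, and the PBS group (2 libraries) received phosphate-buffered saline in its place. Age and sex are not given in the labels, and the tumours come from 1 implanted line rather than from the mouse's own hepatocytes. The comparison asks how feeding the bacterium changes RNA levels in the tumour.

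Integrins are pairs of an alpha and a beta chain that hold cells to matrix proteins or to other cells. Leukocytes leave the blood by rolling on selectins of activated endothelium and platelets and then by binding ICAM and VCAM-1 through integrins of the beta 2 and alpha 4 types. P-selectin, the product of Selp, is stored ready-made in platelet granules and in the Weibel-Palade bodies of endothelium, where von Willebrand factor is stored as well. In the liver, leukocytes enter largely through sinusoids, where VCAM-1 and ICAM-1 act more than selectins.

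The libraries held 48912489 to 59027227 reads on genes, and members took 0.395 to 0.58% of them. Replicates of a group differed by more than sampling noise. AKK 1 stood apart in its mitochondrial share of 3.92% (elsewhere 1.64 to 2.33%) and its ribosomal protein share of 6.42% (elsewhere 3.38 to 4.06%), so the values that lean on it most are also given without it. Markers of hepatocytes were nearly absent from PBS, where 8 genes summed to 1.05 and 2.65 CPM, and summed to 397 CPM in AKK 1 and 101 CPM in AKK 2. The leukocyte marker Ptprc, which encodes CD45, was present in each library at 25.4 and 21.7 against 15.7 and 16.6 CPM. Names of the deposited tables follow 1 pattern in the PBS group and another in the AKK group, and if these mark cohorts, their effect and that of feeding cannot be told apart.

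Across the 33 members kept, P-selectin differed most between the groups and most integrin chains differed little. In the edgeR quasi-likelihood test with Benjamini-Hochberg adjustment over all genes, 0 of 33 members passed an adjusted p of 0.05, where 1 of 17479 genes did (0.00572%). DESeq2 called 1 member, Selp, or 3.03% of those kept, against 4.9% of all genes it tested. In edgeR, 3 members (9.09%) had an unadjusted p under 0.05, Selp on the higher side and Itga2 and Itga4 on the lower, against 15.3% of all genes (6.7% higher and 8.62% lower). Both AKK libraries lay above both PBS libraries in 9 members and below them in 7, which together is 48.5% of members against 51.4% of all genes (26.7% above and 24.7% below). Fold changes were above 0 in 18 of 33 members (54.5%) and in 51.8% of all genes. The median log2 fold change, AKK minus PBS, was 0.04 over the members and 0.02 over all genes. Each of these shares is near or below its background. With 2 libraries a group, an exact two-sided permutation test of 1 gene cannot go below p = 0.333.

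**Figure D1:**
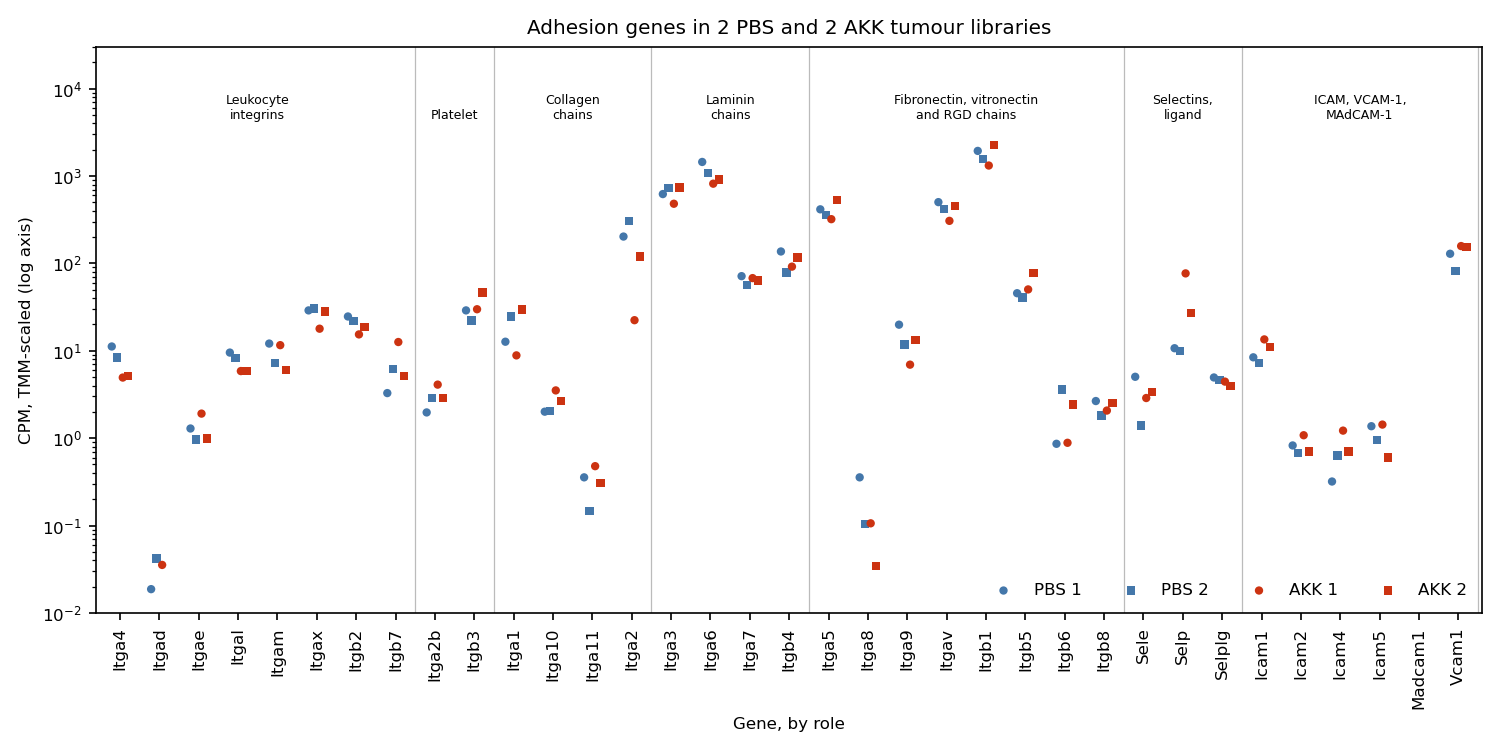
CPM of 35 adhesion genes (log axis), grouped by role, with blue symbols for PBS 1 (circle) and PBS 2 (square) and red ones for AKK 1 (circle) and AKK 2 (square); libraries with 0 reads are not drawn, so Madcam1 has no point. Both AKK symbols of Selp lie above both PBS symbols, and AKK 1 is the lowest library for Itga2 at 22.4 CPM.

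Sele and Selp lie near each other on chromosome 1, and of the pair Selp alone differed by several-fold. Selp (ENSMUSG00000026580.16) spans 164115264 to 164150026 on the plus strand of chromosome 1 in GENCODE M21 (GRCm38), matched by identifier, as the build behind the counts is not given in the sources used here. The PBS libraries held 10.7 and 9.99 CPM of it (573 and 475 reads), AKK 1 held 76.9 CPM (4346 reads) and AKK 2 held 26.9 CPM (1572 reads). The groups do not overlap, the PBS libraries are close to each other, and AKK 1 is far above AKK 2. The difference was 5.01-fold, with a log2 fold change of 2.32 (SE 0.49, edgeR adjusted p = 0.188, DESeq2 adjusted p = 0.00018), and 2 of 2 AKK libraries were higher. Without AKK 1 the log2 fold change was 1.38 (edgeR adjusted p = 0.615), and without AKK 2 it was 2.89 (edgeR adjusted p = 0.152). In edgeR, Selp passed without PBS 1 (adjusted p = 0.0347) and with no filter on low counts (adjusted p = 0.00574).

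The promoter windows of Selp and Sele are shown because these neighbours of one family differ in these data. They are from RefSeq (GRCm38.p6) and run from 250 bases before to 50 after the start, at chr1:164115014-164115313 for Selp and chr1:164047984-164048283 for Sele, both on the plus strand. Capitals mark matches, on either strand, to the NF-kB form (GGG, any 5 bases, CC) and the AP-1 form TGANTCA, where N is any base.
Selp: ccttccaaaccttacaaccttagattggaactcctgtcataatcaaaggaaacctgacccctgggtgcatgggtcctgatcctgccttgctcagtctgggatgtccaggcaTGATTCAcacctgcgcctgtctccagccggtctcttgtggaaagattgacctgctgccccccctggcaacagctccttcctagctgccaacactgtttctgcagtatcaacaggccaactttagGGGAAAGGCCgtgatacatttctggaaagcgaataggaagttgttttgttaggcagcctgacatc
Sele: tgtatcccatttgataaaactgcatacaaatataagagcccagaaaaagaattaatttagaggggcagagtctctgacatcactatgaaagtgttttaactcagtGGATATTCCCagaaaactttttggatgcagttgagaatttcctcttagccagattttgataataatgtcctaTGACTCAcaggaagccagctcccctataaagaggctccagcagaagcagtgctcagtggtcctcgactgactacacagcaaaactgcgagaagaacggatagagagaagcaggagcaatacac
Each window holds 1 match to each form. In Selp the NF-kB form begins 15 bases and the AP-1 form 139 bases before the start, and in Sele they begin 145 and 73 bases before it. The NF-kB form occurs in 50.8% and the AP-1 form in 7.81% of all 32851 windows of this length, so the former separates few promoters. A window was found for 24 of the 36 members.

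E-selectin, the product of Sele, is made by endothelium after cytokine stimulation. Sele read 5.04 and 1.39 CPM in PBS against 2.88 and 3.36 CPM in AKK. Both AKK values lie between the PBS values (log2 fold change -0.04, SE 0.65, edgeR adjusted p = 0.98), and the sign turned without PBS 1 (1.17). Selplg encodes PSGL-1, the main leukocyte ligand of P-selectin. It read 4.95 and 4.60 CPM in PBS against 4.44 and 3.94 CPM in AKK (log2 fold change -0.19, SE 0.35, edgeR adjusted p = 0.811), with no overlap but a small distance between groups.

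**Figure D2:**
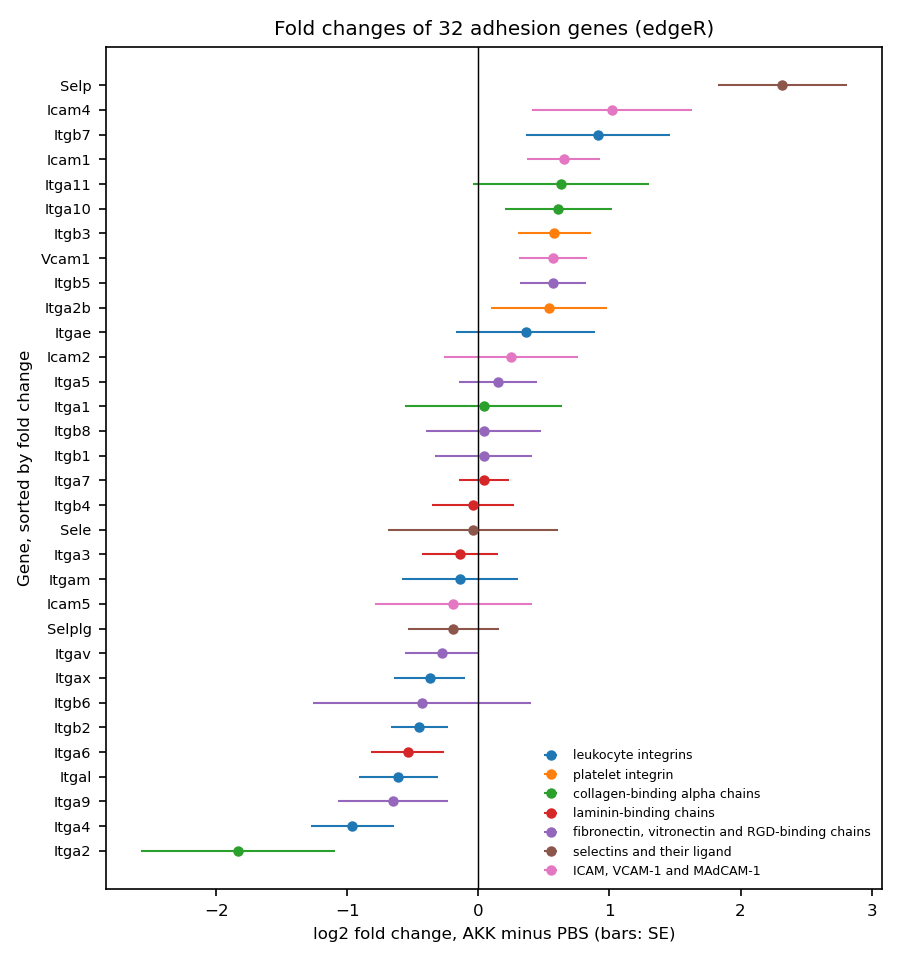
Log2 fold changes, AKK minus PBS, of 32 adhesion genes kept by the filter, sorted by value and coloured by role; bars are 1 SE from the edgeR fit. Selp at 2.32 and Itga2 at -1.83 lie farthest from 0.

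Genes around Selp and of the cells that carry it did not all follow it. Of 11 other vascular endothelial markers, 10 passed the filter, and 8 of these lay below both PBS libraries in both AKK libraries. Of all genes, 24.7% did so. Their summed level, Ackr1 included, was 124 and 88.7 CPM in PBS against 52.9 and 52.3 CPM in AKK. Vwf, which encodes von Willebrand factor, read 15.0 and 11.6 CPM in PBS against 0.743 and 1.70 CPM in AKK (edgeR adjusted p = 0.182, DESeq2 adjusted p = 2.71e-10). Pecam1 and Cdh5, junction proteins of endothelium, read 28.6 and 19.9 against 10.3 and 10.6 CPM and 24.3 and 16.7 against 7.45 and 7.76 CPM, while Egfl7 and Eng overlapped between groups. Selp therefore stood at 0.0868 and 0.113 of that summed level in PBS 1 and PBS 2 and at 1.45 and 0.514 of it in AKK 1 and AKK 2. The log2 ratio of the group means was 3.3, and 2.37 without AKK 1. In bulk samples, fewer cells of a type and less RNA per cell cannot be told apart.

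Platelet and megakaryocyte markers did not separate the groups. The 8 genes summed to 11.7 and 4.27 CPM in PBS against 8.25 and 4.35 CPM in AKK, 4 passed the filter, and 0 of these separated the groups. Those kept were Pf4, Ppbp, Gp1bb and Gp5. Pf4 read 9.11 and 3.01 CPM in PBS against 6.30 and 2.57 CPM in AKK. Gp1bb, with 0.862 and 0.484 against 0.672 and 1.13 CPM, was the only one with a fold change above 0. Those not kept, Gp9, Gp1ba, Gp6 and Treml1, lay at 0 to 0.0885 CPM in each library. Lists that were higher in AKK, and higher in AKK 1 than in AKK 2, were hepatocytes (8 of 8 above both PBS libraries), neutrophils and T cells. For these counts, 26.7% of all genes lay above both PBS libraries and 24.7% below. Neutrophil markers summed to 6.41 and 4.14 against 12.2 and 6.71 CPM, with 3 of 5 kept members above both PBS libraries. Of the neutrophil markers not kept, Ly6g was at 0 in each library. Retnlg went the other way, with 0.431 and 0.168 CPM in PBS and 0.0531 and 0.0171 CPM in AKK. T cell markers summed to 4.18 and 7.82 against 14.6 and 8.67 CPM, with 6 of 8 above both. Of the liver sinusoidal markers, 1 of 5 kept, Stab2, separated upward (0.131 and 0.126 against 2.65 and 0.822 CPM), 1, Lyve1, separated downward (8.98 and 3.28 against 3.08 and 0.993 CPM), Clec4g was at 0 in both PBS libraries, and the list summed to 63.2 and 38.5 against 49.5 and 35.1 CPM. The part of these cells in the Selp difference was not tested.

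The gene after Selp on the same strand is F5, coagulation factor V of hepatocytes, which begins 1812 bases beyond the end of Selp and was looked at after its values were seen. F5 read 0.244 and 0.168 CPM in PBS against 4.60 and 2.5 CPM in AKK, far below Selp in reads (260 against 4346 in AKK 1). Its part in the Selp count was not tested. The genes Gm16587 and Gm16548 lie on the other strand and overlap Selp, and reads on them in their own direction numbered 0 to 7 in any library. Because of that overlap, counts without regard to strand gave Selp fewer reads (338, 287, 2011 and 887) and a log2 fold change of 2.05. Gm16548 reaches from the end of Selp into F5. Reads over it in the direction of Selp and F5 numbered 170, 139, 1806 and 476 in PBS 1, PBS 2, AKK 1 and AKK 2. Over Gm16587 they numbered 59, 55, 505 and 205. How these divide between Selp and F5 was not tested.

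**Figure D3:**
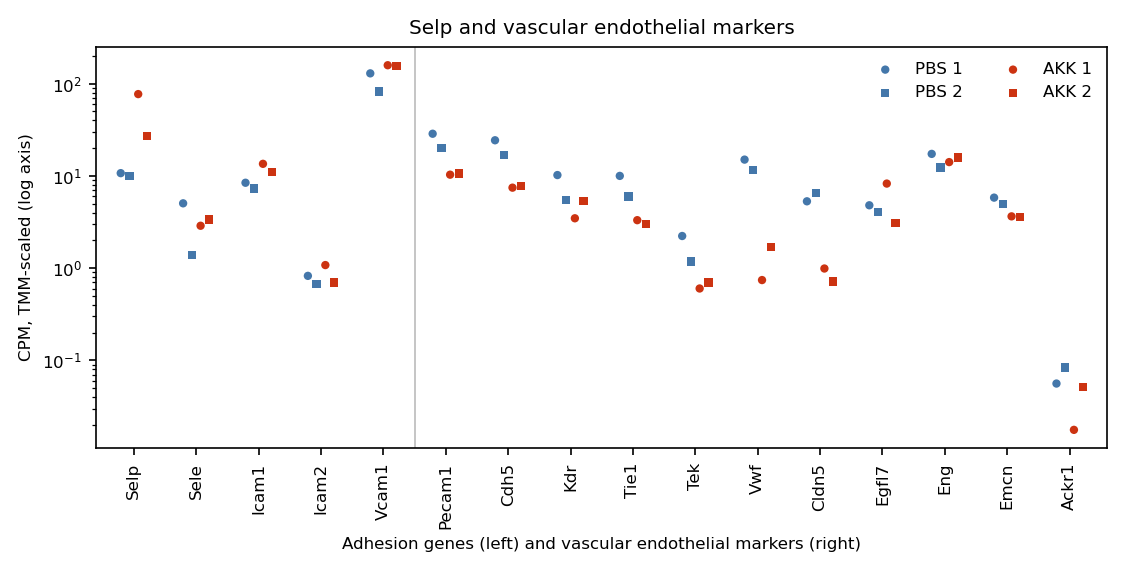
CPM (log axis) of the 5 adhesion genes Selp, Sele, Icam1, Icam2 and Vcam1, left of the grey line, and of 11 vascular endothelial markers, right of it, in PBS (blue) and AKK (red) libraries. Selp is higher in both AKK libraries, while Pecam1, Cdh5, Vwf and Cldn5 are lower in both.

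Of the ligands of leukocyte integrins, Vcam1, Icam1 and Icam4 lay higher in both AKK libraries, and Icam2 and Icam5 overlapped between groups. Vcam1, the ligand of alpha 4 integrins, read 129 and 82.1 CPM in PBS against 158 and 155 CPM in AKK. The groups do not overlap and the AKK libraries were close to each other (log2 fold change 0.57, SE 0.26, edgeR adjusted p = 0.359), though the value was 0.25 without PBS 2 and 0.92 without PBS 1. Icam1, an NF-kB-inducible ligand of beta 2 integrins, read 8.42 and 7.28 CPM against 13.5 and 11.1 CPM, again with no overlap (log2 fold change 0.65, SE 0.28, edgeR adjusted p = 0.346). Icam4, known from red cells and their precursors, read 0.319 and 0.631 CPM against 1.22 and 0.702 CPM (17, 30, 69 and 41 reads, log2 fold change 1.02, edgeR adjusted p = 0.45, and 0.57 on the log2 scale without AKK 1).
Icam2, a constitutive gene of endothelium and leukocytes, overlapped between groups at 0.825 and 0.673 against 1.08 and 0.702 CPM, and its log2 fold change of 0.25 turned to -0.09 without AKK 1. So did Icam5, known from neurons, at 1.37 and 0.946 against 1.43 and 0.599 CPM. Of the 5 ICAM and VCAM genes kept, 4 had a fold change above 0 and 3 (60%) separated the groups, all upward, with a median log2 fold change of 0.57. Of all genes, 51.8% had a fold change above 0, 26.7% lay above both PBS libraries and 51.4% separated in either direction. Relative to the summed endothelial markers, both AKK libraries exceeded both PBS libraries for Icam2 (0.00667 and 0.00758 in PBS, 0.0204 and 0.0134 in AKK) and for Sele (0.0408 and 0.0156 in PBS, 0.0545 and 0.0641 in AKK). That sum was itself lower in AKK (124 and 88.7 against 52.9 and 52.3 CPM), so a gene at an unchanged level gives a higher ratio. In CPM, Icam2 and Sele overlapped between groups.

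Of 7 leukocyte integrin genes kept, 5 had a negative fold change, 4 lay below both PBS libraries and 0 above both, with a median log2 fold change of -0.37. The 4 that separated, all downward, are 57.1% of the 7. Of all genes, 24.7% lay below both PBS libraries and 51.4% separated in either direction. Neither edgeR nor DESeq2 called any of the 7. General leukocyte markers were split, with 3 of 7 at a fold change above 0 and 4 below, and their sums overlapped at 225 and 185 CPM in PBS and 251 and 189 CPM in AKK. Ptprc was among the lower ones (log2 fold change -0.55), whereas Cd53, a tetraspanin of leukocytes, lay above both PBS libraries, with 55.4 and 35.2 CPM in PBS and 122 and 60.2 CPM in AKK (log2 fold change 1.01, edgeR adjusted p = 0.315). The beta 2 chain Itgb2, shared by the leukocyte integrins LFA-1 and Mac-1 and by the CD11c integrin, read 24.7 and 21.9 CPM in PBS against 15.4 and 18.8 CPM in AKK (log2 fold change -0.45, SE 0.22, edgeR adjusted p = 0.39). Its partner Itgal, the alpha chain of LFA-1, read 9.54 and 8.24 against 5.86 and 5.82 CPM (log2 fold change -0.61, SE 0.30, edgeR adjusted p = 0.385). Itgax, which encodes CD11c of dendritic cells and many macrophages, read 29.0 and 30.4 against 17.9 and 28.1 CPM (-0.37 on the log2 scale, and -0.08 without AKK 1). These genes did not overlap between groups. Itgam, which encodes CD11b of myeloid cells, did overlap, at 12.1 and 7.28 against 11.6 and 5.98 CPM, and differed more within groups than between them.

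Divided by Ptprc in the same library, Itgal and Itgb2 were nearly level. Itgal stood at 0.376 and 0.379 of Ptprc in PBS against 0.373 and 0.351 in AKK, and Itgb2 at 0.972 and 1.01 against 0.979 and 1.13. Itga4, the alpha chain of VLA-4 that binds VCAM-1, was lower by both measures. It read 11.2 and 8.35 CPM in PBS against 4.94 and 5.14 CPM in AKK, and 0.441 and 0.384 of Ptprc against 0.315 and 0.31. Its level was 1.94-fold lower (log2 fold change -0.96, SE 0.32, unadjusted p = 0.0249, edgeR adjusted p = 0.277, lower in 2 of 2 AKK libraries), and between -1.18 and -0.73 with any 1 library left out. Selplg, lower in CPM, was higher per Ptprc in both AKK libraries, at 0.195 and 0.212 in PBS and 0.283 and 0.237 in AKK. Ptprc itself is lower in AKK, and no other leukocyte marker was used as divisor. Vcam1 and Itga4, a ligand and a chain of its receptor, had fold changes of opposite sign, and neither passed the threshold.

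The beta 7 integrins pair Itgb7 with Itga4 for homing to the gut and with Itgae, the CD103 chain, for holding T cells to epithelium. Itgb7 read 3.28 and 6.18 CPM in PBS against 12.6 and 5.14 CPM in AKK, where only AKK 1 was high (log2 fold change 0.91, edgeR adjusted p = 0.458, and 0.13 without AKK 1). Itgae read 1.29 and 0.967 against 1.91 and 0.993 CPM, likewise highest in AKK 1, and without AKK 1 its log2 fold change was -0.18. T cell markers, at 4.18, 7.82, 14.6 and 8.67 CPM in PBS 1, PBS 2, AKK 1 and AKK 2, were highest in AKK 1 as well, and so were mast cell markers, at 5.42, 3.85, 22.4 and 1.49 CPM. Macrophage markers were lower, with 8 of 9 at a negative fold change, 7 of them below both PBS libraries, and sums of 426 and 339 against 247 and 263 CPM. Dendritic cell markers had 5 of 5 kept at a fold change above 0, 2 of them above both PBS libraries, and sums of 4.85 and 6.29 CPM in PBS and 7.04 and 8.12 CPM in AKK. Over all genes, 24.7% lay below both PBS libraries, 26.7% lay above both, and 51.8% had a fold change above 0. The part of these cell types in the integrin differences was not tested.

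**Figure D4:**
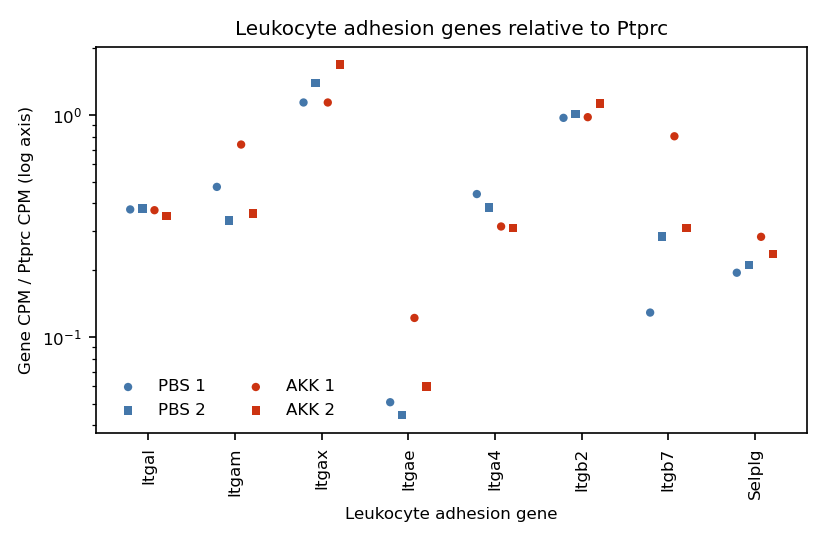
CPM of 8 leukocyte adhesion genes divided by the CPM of Ptprc in the same library (log axis), PBS in blue and AKK in red. Itgal and Itgb2 cluster closely, and Itga4 is lower in both AKK libraries. Itgae and Itgb7 are higher in both AKK libraries and highest in AKK 1.

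The platelet fibrinogen receptor pairs Itga2b with Itgb3, and Itgb3 also pairs with Itgav as a vitronectin receptor of many cells. Itga2b read 1.97 and 2.86 CPM in PBS against 4.10 and 2.89 CPM in AKK, and Itgb3 29.0 and 22.3 against 29.9 and 46.6 CPM. Neither pair of groups overlaps, but PBS 1 and AKK 1 differ little for Itgb3, and the library highest for Itga2b is AKK 1 and for Itgb3 AKK 2. The log2 fold changes were 0.54 (edgeR adjusted p = 0.573) and 0.58 (edgeR adjusted p = 0.383), and they leaned on different libraries, with 0.27 for Itga2b without AKK 1 and 0.22 for Itgb3 without AKK 2.

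Of the collagen receptors, Itga2 lay lower in AKK by the largest margin of any member. Itga2, the alpha chain of the collagen receptor of epithelium and platelets, read 203 and 305 CPM in PBS against 22.4 and 120 CPM in AKK. The groups do not overlap, and AKK 1 lies far below AKK 2. The log2 fold change was -1.83 (SE 0.74, unadjusted p = 0.0487, edgeR adjusted p = 0.324, DESeq2 adjusted p = 0.386, lower in 2 of 2 AKK libraries). It was -1.07 without AKK 1 and -3.51 without AKK 2. Itga1, the collagen receptor chain of stromal and some T cells, differed more within groups than between them, at 12.7 and 24.7 against 8.86 and 29.6 CPM. Itga10, known from cartilage, read 2.01 and 2.04 against 3.52 and 2.67 CPM without overlap (edgeR adjusted p = 0.495). Itga11, a fibroblast collagen receptor chain, had only 7 to 27 reads.

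Of the 4 laminin receptor chains, Itga6 lay lower in both AKK libraries and the others overlapped between groups. Thus 25% of the 4 separated, against 51.4% of all genes in either direction and 24.7% below both PBS libraries. Itga6, the chain that pairs with Itgb1 or Itgb4 to bind laminin, read 1450 and 1080 CPM in PBS against 818 and 917 CPM in AKK (log2 fold change -0.54, SE 0.28, edgeR adjusted p = 0.405), with no overlap. Itgb4, the hemidesmosome chain, read 137 and 78.5 against 91.9 and 117 CPM. Itga3 read 622 and 725 against 482 and 738 CPM, and Itga7, the laminin receptor chain of muscle, 71.5 and 57.0 against 67.9 and 64.0 CPM. Skeletal muscle markers summed to 257, 8.03, 2.34 and 2.55 CPM in PBS 1, PBS 2, AKK 1 and AKK 2. PBS 1 was the highest library for them and for Itga7, by a far smaller margin for Itga7. The part of muscle in the Itga7 level was not tested.

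Among the fibronectin, vitronectin and RGD-binding chains, 6 of 7 kept overlapped between groups. Those that separated were 14.3% of the 7, where 51.4% of all genes separated in either direction. Itgb1, the common beta chain, read 1940 and 1560 CPM in PBS against 1320 and 2280 CPM in AKK, with AKK 1 lowest and AKK 2 highest (log2 fold change 0.04, SE 0.37). The fibronectin receptor chain Itga5 had the same order of AKK libraries, at 416 and 356 against 321 and 533 CPM, and so did Itgav, at 503 and 418 against 307 and 452 CPM. Itgb5, a vitronectin receptor chain, was the 1 that separated the groups, at 45.6 and 40.7 against 50.4 and 77.4 CPM (log2 fold change 0.57, SE 0.25, edgeR adjusted p = 0.353, and 0.22 without AKK 2). Itga9, the chain of a receptor for tenascin-C and osteopontin, read 19.9 and 11.8 against 6.94 and 13.3 CPM. Itgb6, an epithelial chain that activates TGF-beta, and Itgb8, another chain with that role, lay between 0.862 and 3.62 CPM.

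Per length, the tumour's integrins were dominated by the beta 1 chain in every library. CPM were divided by the exon length of each gene in GENCODE M21 for this. Itgb1 made up 91, 91.3, 88.4 and 91.1% of the summed CPM per kb of the 8 beta chains in PBS 1, PBS 2, AKK 1 and AKK 2. Of the 18 alpha chains, Itga6 took 35.4, 28.4, 31.2 and 24.3%, Itga3 24.1, 30.2, 29 and 30.9%, and Itga5 18.6, 17.1, 22.4 and 25.8%. The order of Itga6 and Itga3 changed between libraries of both groups, so these neighbours do not differ beyond their spread. The Itga5 share was higher in both AKK libraries, and the Itga2 share was lower in both, at 6.27 and 10.2% in PBS against 1.08 and 4.03% in AKK. A share also rises when other chains fall, and the Itga5 level itself overlapped between groups (416 and 356 CPM in PBS, 321 and 533 CPM in AKK). Per length, Selp stood at 2.43 and 2.26 CPM per kb in PBS, near Icam1 (1.93 and 1.67), and at 17.4 and 6.10 CPM per kb in AKK, where Vcam1 stood at 17.8 and 17.4.

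**Figure D5:**
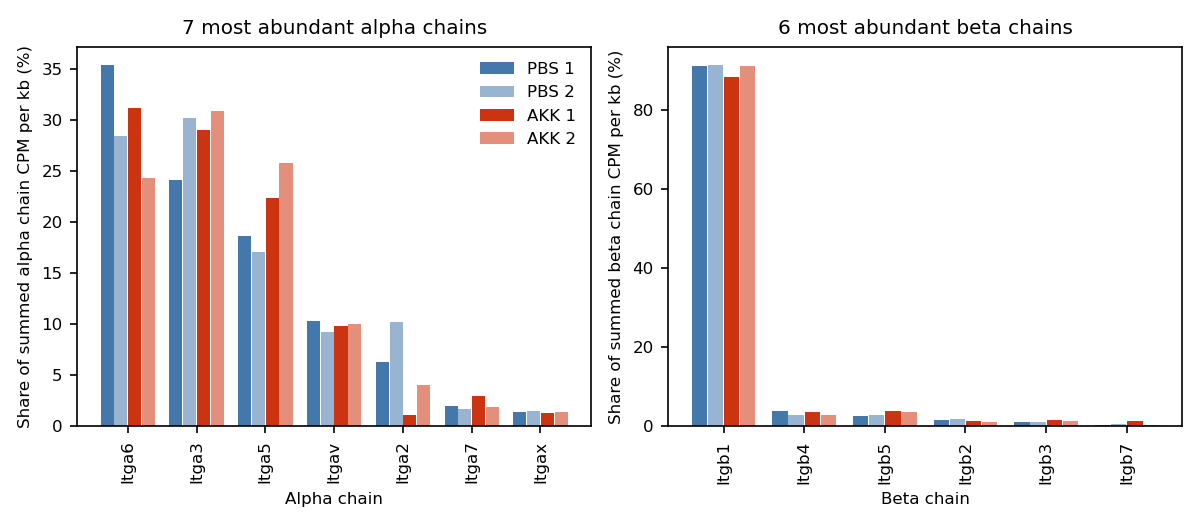
Share (%) of the summed CPM per kb of all 18 alpha chains (left, the 7 most abundant) and all 8 beta chains (right, the 6 most abundant) in each library; bars start at 0, PBS in blue and AKK in red. Itgb1 takes 88.4 to 91.3% of the beta chain level in the 4 libraries.

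The partners of these receptors were read from 4 lists. Of 25 integrin activators and adaptors, such as talin, kindlins and focal adhesion kinase, 0 passed in edgeR or DESeq2. DESeq2 called 4.9% of all genes. An unadjusted p under 0.05 in edgeR was found in 0 of the 25, against 15.3% of all genes. Fold changes were above 0 in 10 and below in 15, with a median log2 fold change of -0.18. Over all genes, 51.8% were above 0. Tln2, a talin that activates integrins, had the smallest p, at 184 and 158 CPM in PBS against 129 and 132 CPM in AKK (edgeR adjusted p = 0.381). Rasgrp2 and the epithelial kindlin gene Fermt1 followed, with log2 fold changes of 1.04 and 0.75, and then Lims1, the gene of the focal adhesion adaptor PINCH, with -0.67 (131 and 127 CPM in PBS, 52.1 and 110 CPM in AKK).

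Matrix ligands were the list with most DESeq2 calls, 1 higher and 6 lower of 30, where DESeq2 called 2.07% of all genes higher and 2.83% lower. In edgeR 0 of them passed. The unadjusted p in edgeR was under 0.05 in 2 higher and 7 lower, against 6.7% of all genes higher and 8.62% lower. Fold changes were above 0 in 10 and below in 20, against 51.8% of all genes above 0. The median log2 fold change was -0.25. Thbs2, the gene of the matricellular protein thrombospondin-2, read 70.0 and 42.3 CPM in PBS against 7.27 and 10.7 CPM in AKK (edgeR adjusted p = 0.173, DESeq2 adjusted p = 2.22e-09). Lama2, the laminin chain around muscle fibres and vessels, read 8.10 and 2.38 against 0.283 and 0.497 CPM (edgeR adjusted p = 0.182, DESeq2 adjusted p = 1.11e-05). Vtn, the gene of vitronectin, a plasma protein made by hepatocytes, was the higher one. It read 0.656 and 0.147 CPM in PBS against 35.0 and 6.83 CPM in AKK, highest in AKK 1 (edgeR adjusted p = 0.182, DESeq2 adjusted p = 0.00177). Hepatocyte markers summed to 1.05 and 2.65 CPM in PBS against 397 and 101 CPM in AKK. Their part in the Vtn difference was not tested. Vwf, given above, was the remaining gene of the 4 with the smallest p.

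Of 17 selectin ligand and glycosyltransferase genes, 15 were kept, 3 with a fold change above 0 and 12 below (median log2 fold change -0.19). Of all genes, 51.8% had a fold change above 0. In edgeR or DESeq2 0 of the list passed, where DESeq2 called 4.9% of all genes. The unadjusted p in edgeR was under 0.05 in 2 higher and 2 lower, against 6.7% of all genes higher and 8.62% lower. Gcnt1, a branching enzyme needed for selectin ligands on leukocytes, lay at 159 and 188 CPM in PBS and at 103 and 106 CPM in AKK (edgeR adjusted p = 0.218). St3gal6, a sialyltransferase of selectin ligands, read 73.4 and 82.0 against 142 and 104 CPM (edgeR adjusted p = 0.274). Cd34, a sialomucin of endothelium and progenitors, read 11.7 and 7.32 against 3.87 and 4.83 CPM. Fut7, the fucosyltransferase of leukocyte selectin ligands, was close to the detection limit, at 0.0375 and 0.0631 against 0.195 and 0.240 CPM. The junction list held 12 genes, 11 matched and 10 kept. Of those kept, 4 had a fold change above 0 and 6 below, against 51.8% of all genes above 0. Their median log2 fold change was -0.78. DESeq2 called Pecam1 (adjusted p = 0.00615) and Cdh5 (adjusted p = 0.00106) lower, where it called 2.83% of all genes lower. For these genes edgeR gave adjusted p = 0.188 and 0.182, and it called 0 of the list. Jam2 and Esam, also junction proteins of endothelium, read 35.7 and 25.4 against 22.8 and 13.2 CPM and 6.73 and 4.84 against 3.34 and 2.59 CPM, with edgeR adjusted p of 0.344 and 0.327.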

How the data were processed

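Total RNA of tumours was sequenced as pairs of 151 bp reads, per the labels. Each deposited table holds unnormalized counts of reads for every gene, laid out as STAR writes them. STAR 2.5.2 and RSEM 1.2.31 are named in the submitters' processing notes. The genome build is not given in the sources used here. Such tables drop reads that map to several places. Own-strand counts were used (95.4 to 96.2% of reads assigned by strand). Entries naming no gene, 27.6 to 31.4% of reads, were left out. Symbols matched 48058 of 48526 identifiers by Ensembl ID without version.

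Genes were tested on the whole table with edgeR 4.0.16 (R 4.3.3): the legacy form of glmQLFit with a two-sided glmQLFTest, TMM scaling, filterByExpr, group as the only term, Benjamini-Hochberg adjustment, threshold 0.05, prior count 0.125, SE from the F statistic. CPM use TMM-scaled library sizes, and 3 reads, the limit that a count of 0 allows, are worth 0.0514 to 0.0631 CPM. Alternatives were DESeq2 1.42.0, limma-voom (limma 3.58.1), other scalings and filters, unstranded counts, the edgeR 4 form, a replicate block and leaving out each library. On simulated counts of this comparison with 17479 genes, edgeR called 54% of 4-fold and 97.7% of 32-fold changes (13.7 false calls per simulation). DESeq2 called 70% and 97.3% (67 false calls). These counts were drawn independently for each library at the fitted dispersions, so the rates need not hold for the data. In the data, edgeR called 1 of 8 hepatocyte markers, whose log2 fold changes were 5.01 to 8.7. On the simulated counts, false calls exceeded the share that a threshold of 0.05 allows, most of all with DESeq2.

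The members and lists were chosen with earlier results of these data known. Members are accounted for by name or by count, and 1 is not reported here. Of each partner list, genes past the threshold or, where none passed, up to 4 with the smallest p were named. Any other gene was named after its values were seen or as a defining marker. The labels call the libraries of a group biological replicates without saying that they are separate mice. The p-values then measure only how these libraries spread, which may be technical.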

Additional observations from a re-analysis of the deposited data

How the results depend on the processing

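With 2 libraries a group, the number of genes past the threshold depended on the test. Over all genes it was 1 in the edgeR test, 3 with upper-quartile scaling, 4 with the edgeR 4 form, 631 with no filter on low counts, 916 with DESeq2 and 0 with limma-voom (2677 genes had an unadjusted p under 0.05 in edgeR), and leaving out 1 library gave 0 to 324 (279 without PBS 1, 324 without PBS 2 and 0 without AKK 1 or without AKK 2). Those fits assume that the lone library varies like the others. The member count was 0, or 1 with no filter, with DESeq2 and without PBS 1, each time Selp, so leaving out 1 library gave 0 to 1. The replicate numbers were not taken to pair the samples (correlation of replicate differences -0.037 across genes). With the replicate block 209 genes passed, and 1 member, Selp (log2 fold change 2.14, adjusted p = 0.0453). Over all alternatives Selp ranged from 1.38 without AKK 1 to 2.89 without AKK 2, with adjusted p from 0.00018 to 0.615. Groups separated in 23 to 27 members when 1 library was left out, since fewer libraries separate more easily.

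Across the 9 alternatives that keep all libraries, 3 members with fold changes near 0 turned: Itga1 (-0.13 with the block, -0.11 with limma-voom), Sele (0.22 and 0.21) and Itgb4 (0.02 with unstranded counts). Leaving out 1 library turned 13 of 33 members, with ranges of -0.09 to 0.52 for Icam2, -0.95 to 0.3 for Icam5, -1.09 to 0.67 for Itga1, -0.49 to 0.13 for Itga3, -0.27 to 0.47 for Itga5, -0.15 to 0.21 for Itga7, -0.18 to 0.75 for Itgae, -0.69 to 0.26 for Itgam, -0.41 to 0.39 for Itgb1, -0.42 to 0.41 for Itgb4, -1.34 to 0.92 for Itgb6, -0.24 to 0.34 for Itgb8 and -0.72 to 1.17 for Sele. The other 20 kept their direction in these fits. Relative to the endothelial marker sum, which was itself lower in AKK, the log2 ratio ranged from 2.37 to 3.87 for Selp, 0.54 to 1.92 for Sele and 0.91 to 1.52 for Icam2. The causes were not tested.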
